A study of Rattus norvegicus with 17 samples.

Results

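The small leucine-rich proteoglycans and the contractile genes known as markers of fibroblasts and mural cells were read out here across all 6 groups of a rat brain culture experiment. Which cells of these cultures express them was not tested. The 8 genes were chosen by name: the proteoglycans Lum, Dcn and Bgn, and the contractile genes Tagln, Acta2, Myl9, Tpm1 and Tpm2. Of these 8, 7 were in the table of 11247 genes, all 3 proteoglycans and 4 of the 5 contractile genes; Acta2, smooth muscle actin, is not listed in the table used here and was not analysed here. The choice of Lum and of the other markers was made with 1 comparison of these data in view, A53T against vector in DMSO. Lum was already known to be low in it. The values of that comparison are therefore given for all members as a description, with no p and nothing read from them. Changes of the other members against DMSO are tested below. They use the same DMSO libraries and are not fully separate from the comparison in view.

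Messenger RNA was measured in 17 libraries of primary cultures of the rat cerebral cortex, labelled as glutamatergic neurons and astrocytes. The cultures were infected with the A53T variant of α-synuclein (A53T below) or with an empty vector, and each genotype received the solvent DMSO, 0.2 µM FK506 or 2.0 µM FK506. The A53T groups held 2 libraries in DMSO (replicate 1 and a library with no usable number), 3 at 0.2 µM and 3 at 2.0 µM, and each of the 3 vector groups held 3 libraries. All groups are infected cultures, and age, sex, promoter of the construct and time in the drug are not given in the sources used here. α-Synuclein, a protein of the presynaptic terminal, forms the aggregates of Parkinson's disease, and A53T is a familial variant of it. FK506 (tacrolimus) binds the immunophilin FKBP12, and the complex inhibits calcineurin, the phosphatase that calcium activates.

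Small leucine-rich proteoglycans are secreted matrix proteins that carry glycosaminoglycan chains and bind collagen fibrils; decorin and biglycan also bind TGF-β. In the brain they are best known from the meninges, from perivascular fibroblasts and from scars. The contractile genes encode parts of the actin and myosin machinery: transgelin and the tropomyosins lie along actin filaments, and Myl9 encodes a regulatory light chain of myosin II. These genes are typical of smooth muscle, pericytes and activated fibroblasts, and many are targets of serum response factor (SRF), its MRTF coactivators and TGF-β. Actin-rich cells such as astrocytes and neurons also express tropomyosins and nonmuscle myosin, so that the contractile genes are not specific to mural cells.

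In A53T cultures, Dcn and Bgn fell at 2.0 µM FK506, and Tagln averaged 1084 ± 235 normalized counts (SD, n = 3), against 1604 ± 64.0 in DMSO (SD, n = 2). In vector cultures the same dose lowered Dcn and Bgn as well and Lum was lower, each in all 3 libraries, but Tagln went the other way and reached 6012 ± 719, against 852 ± 96.3 in DMSO (SD, n = 3 each). At 2.0 µM, Tpm1 did not fall detectably in A53T cultures and fell in vector cultures, and neither Myl9 nor Tpm2 passed the test in either genotype.

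Values are the authors' normalized gene counts, and changes are log2 fold changes ± standard error on log2(value + 1) from a limma fit over all genes. "Rose" and "fell" are used only past a Benjamini-Hochberg adjusted p of 0.05 over all 11247 genes. Normalized totals ran from 15091428 to 18335540 per library; the raw depth is unknown, so no counting interval is given, and values are not scaled to gene length, so levels are compared between samples and not between genes. The 3 A53T libraries at 0.2 µM had squared differences of 0.993 to 1.04 times what Poisson sampling gives for genes with means of 10 to 3000; elsewhere this ratio was 1.46 to 13.7. For genes with means of 3000 to 10000, where Tpm1 lies, it was 1.19 to 1.74, against 2.96 to 130 elsewhere. If normalized counts are taken as reads, they differed by about sampling noise over the lower range and slightly more above it. Since the raw depth is unknown, only the contrast with the other groups is read from these ratios. The 3 libraries were counted as 1 sample, their mean, which is assumed to vary like the other groups. They also stood apart in their whole distribution: the first quartile of their values was 184, against 96.8 to 138 in the other 14 libraries, and Map2, a neuronal gene named after its values were seen, read 17886 to 18734, against 71.8 to 1485. In the comparisons with that group, between 47.3% and 77.3% of all genes passed the test. Another 3 libraries, known from earlier results, lay farthest from the mean of the others in their group (A53T 2.0 µM replicate 1, vector 0.2 µM replicate 1 and vector 2.0 µM replicate 2; root mean square log2 distances of 0.487, 0.386 and 0.329), and counts without them are given below. A53T 2.0 µM replicate 3, at 0.366, was left out only on its own. In bulk RNA of this kind, fewer cells of a type and less RNA per cell cannot be told apart.

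**Figure D1:**
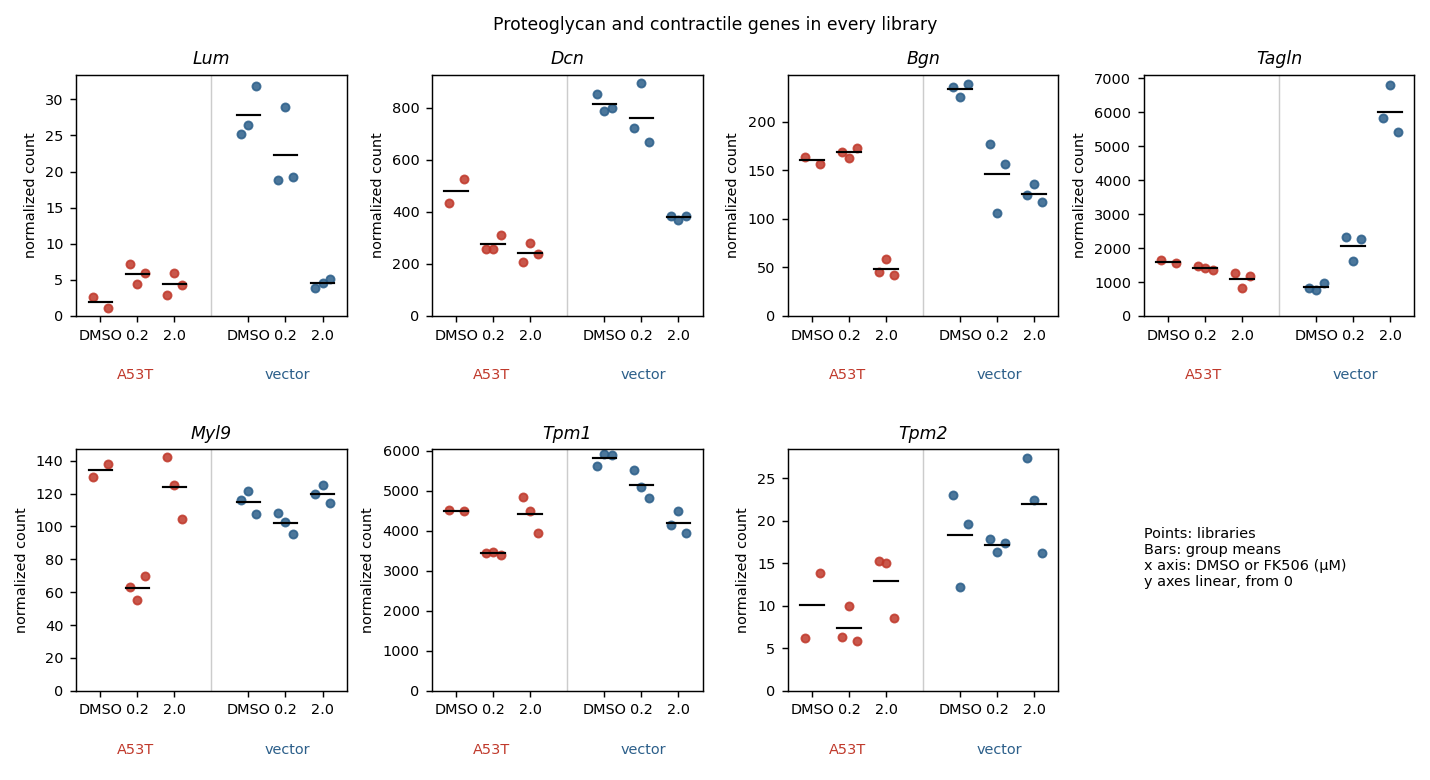
Normalized counts of the 7 measured genes in every library (points) with group means (bars), by FK506 dose in µM on the x axis, A53T left and vector right in each panel. Tagln stays between 817 and 1650 in all A53T libraries and climbs with dose in vector cultures, to between 5411 and 6809 at 2.0 µM, while Lum is at most 7.21 in all A53T libraries and in vector at 2.0 µM and between 18.9 and 31.9 in the other vector libraries.

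Lum encodes lumican, a keratan sulfate proteoglycan that spaces collagen fibrils. Its level was low throughout. In A53T cultures it read 2.63 and 1.13 normalized counts in DMSO, 7.21, 4.46 and 5.91 at 0.2 µM, and 2.84, 6.003 and 4.29 at 2.0 µM. In vector cultures it read 25.1, 26.4 and 31.9 in DMSO, 18.9, 28.9 and 19.2 at 0.2 µM, and 3.88, 4.63 and 5.07 at 2.0 µM. The 6 vector libraries in DMSO or 0.2 µM thus stood above all 11 others, and vector at 2.0 µM overlapped both FK506 groups of A53T.

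In order of level, A53T in DMSO was lowest and did not overlap A53T at 2.0 µM above it. A53T at 2.0 µM, vector at 2.0 µM and A53T at 0.2 µM followed and overlapped each other in turn, and the vector groups at 0.2 µM and in DMSO were highest and overlapped each other. Lum was lower by a log2 change of -3.37 ± 0.35 in A53T than in vector in DMSO, which is the comparison in view. Against DMSO, 2.0 µM FK506 gave 0.91 ± 0.35 in A53T and -2.38 ± 0.31 in vector, and 0.2 µM gave 1.30 ± 0.47 in A53T and -0.32 ± 0.31 in vector. These share the DMSO libraries that brought Lum in and are likewise given with no p.

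The 4 comparisons of Lum that use no DMSO library were tested. In vector cultures Lum was lower at 2.0 than at 0.2 µM (-2.06 ± 0.31, adjusted p = 0.000373), and at 0.2 µM it was lower in A53T than in vector (-1.74 ± 0.44, adjusted p = 0.00399). At 2.0 µM the genotypes gave -0.08 ± 0.31 (adjusted p = 0.88, interval -0.75 to 0.60), with 4.38 ± 1.58 normalized counts in A53T and 4.53 ± 0.605 in vector (SD, n = 3 each). Between 2.0 and 0.2 µM in A53T, Lum gave -0.39 ± 0.44 (adjusted p = 0.431), and 0.66 after quantile normalization. The sign between genotypes at 2.0 µM was not stable either: it was 0.16 without the 3 libraries that stood apart and 0.37 after quantile normalization.

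Dcn encodes decorin, the chondroitin or dermatan sulfate proteoglycan that decorates collagen fibrils. In A53T cultures it read 435 and 528 normalized counts in DMSO, 258, 257 and 309.9 at 0.2 µM, and 207, 280.1 and 237 at 2.0 µM. In vector cultures it read 853, 787 and 799.5 in DMSO, 723, 893 and 668 at 0.2 µM, and 384, 369 and 383 at 2.0 µM. Every A53T library was below every vector library of the same dose.

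The fall of Dcn at 2.0 µM was of like size in both genotypes. It was -1.0 ± 0.14 in A53T (adjusted p = 0.000263) and -1.10 ± 0.12 in vector (adjusted p = 1.47e-05), and the interaction, which is the change in A53T minus the change in vector, was 0.10 ± 0.19 with an interval of -0.30 to 0.51 (adjusted p = 0.711). Without the libraries that stood apart the falls were -0.89 in A53T and -1.08 in vector.

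At 0.2 µM, Dcn fell in A53T (-0.80 ± 0.19, adjusted p = 0.00244), where the group is 1 sample whose value distribution stands apart, and gave -0.10 ± 0.12 in vector (adjusted p = 0.575, interval -0.37 to 0.17). The interaction at 0.2 µM was -0.70 ± 0.23 (adjusted p = 0.0245) and no longer passed when the unnumbered A53T library in DMSO was left out (adjusted p = 0.0905). For 2.0 against 0.2 µM, A53T gave -0.20 ± 0.18 (adjusted p = 0.322), while Dcn fell in vector (-1.0 ± 0.12, adjusted p = 9.27e-05).

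Between genotypes, Dcn was lower in A53T at 0.2 µM (-1.46 ± 0.18, adjusted p = 3.57e-05) and at 2.0 µM (-0.66 ± 0.12, adjusted p = 0.00357), and in DMSO the difference was -0.76 ± 0.14. In order of level, both FK506 groups of A53T were lowest and overlapped, then came vector at 2.0 µM and A53T in DMSO, each clear of its neighbours, and the vector groups at 0.2 µM and in DMSO were highest and overlapped.

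Bgn encodes biglycan, the close relative of decorin whose gene lies on the X chromosome. In A53T cultures it read 164 and 156 normalized counts in DMSO, 169, 163 and 173 at 0.2 µM, and 45.01, 59.03 and 42.4 at 2.0 µM. In vector cultures it read 236, 225 and 238.5 in DMSO, 177, 106 and 156 at 0.2 µM, and 125, 135 and 117 at 2.0 µM. The 3 A53T libraries at 2.0 µM were below all 14 others, and the 3 vector libraries in DMSO were above all others.

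Bgn fell at 2.0 µM in A53T (-1.71 ± 0.20, adjusted p = 7.8e-05) and in vector (-0.89 ± 0.18, adjusted p = 0.00119). The interaction was -0.82 ± 0.26 and missed the threshold (adjusted p = 0.0566); it passed without the 3 libraries that stood apart (-0.72, adjusted p = 0.0322) and with only the 4 groups concerned in the fit (adjusted p = 0.0255). Between genotypes at 2.0 µM, Bgn was lower in A53T (-1.36 ± 0.18, adjusted p = 0.000297).

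At 0.2 µM, Bgn gave 0.07 ± 0.26 in A53T (adjusted p = 0.818, and -0.47 after quantile normalization). In vector the same dose lowered it (-0.70 ± 0.18, adjusted p = 0.0172), a call lost without vector 0.2 µM replicate 2, the lowest library of that group (-0.49, adjusted p = 0.0628), and without vector DMSO replicate 3 (adjusted p = 0.0584). For 2.0 against 0.2 µM, Bgn fell in A53T (-1.78 ± 0.25, adjusted p = 3.79e-05), while vector gave -0.18 ± 0.18 (adjusted p = 0.445).

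The genes for lumican and decorin are neighbours on rat chromosome 7 in the RefSeq annotation of GRCr8, in the order Btg1, Dcn, Lum, Kera, Epyc. Over the 15 samples the log2 values of Lum and Dcn had a Pearson r of 0.77, those of Dcn and Bgn 0.76, and those of Lum and Bgn 0.48. These samples share their groups, and the r values describe that pattern only. At 2.0 µM, Dcn and Bgn were lower than in DMSO in A53T and Lum was not, and all 3 were lower in vector. In A53T in DMSO, however, Lum read only 2.63 and 1.13, which leaves little room for a fall. Those low values also brought Lum in, so nothing is read from its difference from Dcn and Bgn.

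Of 14 other small leucine-rich proteoglycans, 3 were in the table. Fmod, fibromodulin, fell at 2.0 µM far more in A53T (-2.94 ± 0.12, adjusted p = 3.74e-08) than in vector (-0.45 ± 0.11, adjusted p = 0.00532), and the interaction was -2.49 ± 0.17 (adjusted p = 3.61e-06). Tsku, tsukushi, gave 0.07 ± 0.13 in A53T (adjusted p = 0.699) and rose in vector (0.42 ± 0.12, adjusted p = 0.0116). Prelp gave -0.58 ± 0.22 in A53T (adjusted p = 0.0558) and -0.37 ± 0.20 in vector (adjusted p = 0.152).

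The enzymes that build glycosaminoglycan chains were read beside the core proteins. At 2.0 µM against DMSO, 2 of 16 measured genes rose and 5 fell in A53T, where 37.6% of all genes passed, with a median of -0.20, and 1 rose and 1 fell in vector, where 47.2% of all genes passed, with a median of -0.05. The share that passed in vector was below that of all genes. Csgalnact2, which starts chondroitin chains, rose in A53T (0.51 ± 0.12, adjusted p = 0.00655) and in vector (0.69 ± 0.11, adjusted p = 0.000177). Dse, dermatan sulfate epimerase, fell in A53T (-0.95 ± 0.15, adjusted p = 0.000615).

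Tagln encodes transgelin, an actin-binding protein that is among the earliest markers of smooth muscle. In A53T cultures it read 1649.6 and 1559 normalized counts in DMSO, 1479, 1402 and 1354 at 0.2 µM, and 1258, 817 and 1177.5 at 2.0 µM. In vector cultures it read 827.5, 769.6 and 958 in DMSO, 2331, 1607 and 2262 at 0.2 µM, and 5817, 6809 and 5411 at 2.0 µM. The 3 vector groups did not overlap and stood in the order of dose, and vector at 2.0 µM was above every other library.

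In A53T cultures Tagln gave -0.18 ± 0.25 at 0.2 µM (adjusted p = 0.536) and fell at 2.0 µM (-0.59 ± 0.19, adjusted p = 0.0291). That fall rested on single libraries: the adjusted p was 0.138 without A53T DMSO replicate 1, 0.106 without the unnumbered A53T library in DMSO and 0.0825 without A53T 2.0 µM replicate 2, the lowest of its group, where the change was -0.40. The adjusted p was 0.0756 with the 2 groups alone in the fit; without the 3 libraries that stood apart the change was -0.71 (adjusted p = 0.00104). In vector cultures Tagln rose at 0.2 µM (1.26 ± 0.17, adjusted p = 0.000597), at 2.0 µM (2.82 ± 0.17, a 7.05-fold change, adjusted p = 1.22e-07) and between the doses (1.55 ± 0.17, adjusted p = 4.02e-05).

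The interaction of genotype with dose was -1.45 ± 0.31 at 0.2 µM (adjusted p = 0.0045) and -3.41 ± 0.25 at 2.0 µM (adjusted p = 8.3e-06), and -3.43 at 2.0 µM without the libraries that stood apart. The genotype difference was positive in DMSO and negative at both doses. It was 0.92 ± 0.19 in DMSO, -0.53 ± 0.24 at 0.2 µM (adjusted p = 0.066, below 0.05 in some alternatives, such as 0.0206 after quantile normalization) and -2.49 ± 0.17 at 2.0 µM (adjusted p = 2.14e-06), where A53T averaged 1084 ± 235 and vector 6012 ± 719 (SD, n = 3 each). The DMSO libraries took part in the comparison in view, so the interactions are not fully separate from it; the difference at 2.0 µM uses none of them.

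Myl9 encodes the myosin regulatory light chain of smooth muscle and nonmuscle cells. In A53T cultures it read 130.2 and 138 normalized counts in DMSO, 63.4, 55.4 and 69.6 at 0.2 µM, and 142.5, 125 and 105 at 2.0 µM. In vector cultures it read 116, 121 and 108 in DMSO, 108, 103 and 95.4 at 0.2 µM, and 120.0, 125 and 114 at 2.0 µM. All groups but A53T at 0.2 µM overlapped a neighbour in the order of levels.

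A53T at 0.2 µM was the group that differed for Myl9. It was lower than A53T in DMSO (-1.08 ± 0.19, adjusted p = 0.00035) and than vector at 0.2 µM (-0.69 ± 0.18, adjusted p = 0.00404), and A53T at 2.0 µM was higher than it (0.96 ± 0.18, adjusted p = 0.000286). The interaction at 0.2 µM was -0.91 ± 0.22 (adjusted p = 0.00845). All 4 rest on the group whose value distribution stands apart, and the part of that distribution in them was not tested. At 2.0 µM against DMSO, Myl9 gave -0.12 ± 0.14 in A53T (interval -0.42 to 0.18) and 0.06 ± 0.12 in vector (interval -0.21 to 0.33), and the genotypes at 2.0 µM gave 0.04 ± 0.12 (interval -0.23 to 0.31).

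Tpm1 encodes α-tropomyosin, which stabilizes actin filaments and is found in muscle and in most other cells. In A53T cultures it read 4520.5 and 4480.3 normalized counts in DMSO, 3451, 3461 and 3398 at 0.2 µM, and 4854, 4489 and 3930.4 at 2.0 µM. In vector cultures it read 5629, 5907 and 5894 in DMSO, 5508, 5088 and 4821 at 0.2 µM, and 4152.5, 4487 and 3930.3 at 2.0 µM. The vector groups stepped down with dose without overlap, and A53T in DMSO already lay near the level of vector at 2.0 µM.

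In A53T, Tpm1 gave -0.03 ± 0.09 at 2.0 µM (adjusted p = 0.801, interval -0.22 to 0.16). In vector it fell at 2.0 µM (-0.47 ± 0.08, adjusted p = 0.000287) and between the doses (-0.29 ± 0.08, adjusted p = 0.0114), and gave -0.18 ± 0.08 at 0.2 µM (adjusted p = 0.126). The interaction at 2.0 µM, which contains the DMSO difference in view, was 0.44 ± 0.12 (adjusted p = 0.0262). It did not pass without A53T DMSO replicate 1, the unnumbered A53T DMSO library, A53T 2.0 µM replicate 2, vector DMSO replicate 2 or 3, or vector 2.0 µM replicate 1 or 3, each left out in turn (0.40 to 0.45, adjusted p = 0.0531 to 0.1003). At 0.2 µM, Tpm1 fell in A53T (-0.39 ± 0.12, adjusted p = 0.0103) and was lower in A53T than in vector (-0.58 ± 0.11, adjusted p = 0.000637); the genotype difference was -0.37 ± 0.09 in DMSO and 0.08 ± 0.08 at 2.0 µM (adjusted p = 0.5).

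Tpm2 encodes β-tropomyosin and was low in all libraries. It ran from 5.88 to 15.3 normalized counts over the 8 A53T libraries and from 12.2 to 27.35 over the 9 vector libraries, and none of its tested comparisons passed. The genotype differences were -0.85 ± 0.38 in DMSO, -1.12 ± 0.48 at 0.2 µM (adjusted p = 0.0547) and -0.73 ± 0.34 at 2.0 µM (adjusted p = 0.142). The FK506 changes at 2.0 µM were 0.38 ± 0.38 in A53T and 0.27 ± 0.34 in vector, with intervals from -0.44 to 1.21 and from -0.47 to 1.0.

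**Figure D2:**
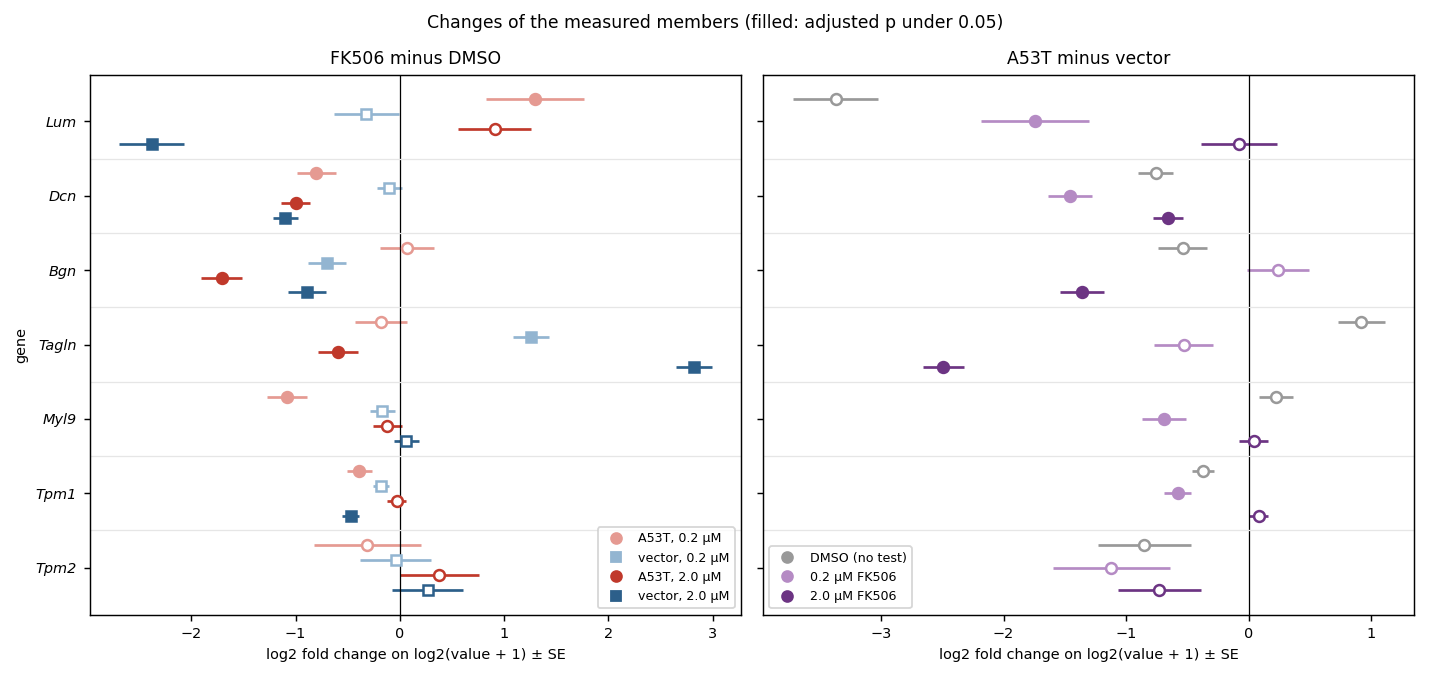
Log2 fold changes ± standard error (x axis, on log2(value + 1)) of each measured gene (y axis), FK506 minus DMSO on the left and A53T minus vector on the right, with filled symbols for an adjusted p under 0.05 and gray for the DMSO comparison, for which no test is given. The Lum symbols on the left share the DMSO libraries that brought Lum in, and their fill is not read as a test. At 2.0 µM Tagln lies at -0.59 in A53T and 2.82 in vector, whereas Dcn lies at -1.0 in A53T and -1.10 in vector.

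Counted over the 7 measured genes, 2.0 µM FK506 against DMSO changed 3 in A53T, all lower, where 37.6% of all genes passed (19.7% higher, 17.9% lower), and 5 in vector, 1 higher and 4 lower, where 47.2% of all genes passed (23.4% higher, 23.8% lower). At 0.2 µM it changed 4 in A53T, 1 higher and 3 lower, against 67.8% of all genes (33.6% higher, 34.2% lower), and 2 in vector, 1 higher and 1 lower, against 18.3% (7.70% higher, 10.6% lower). That count in vector was 1 without vector DMSO replicate 3 or without vector 0.2 µM replicate 2. Between the doses, 3 changed in A53T, 2 higher and 1 lower, against 77.3% of all genes (38.7% higher, 38.5% lower), and 4 in vector, 1 higher and 3 lower, against 33.7% (18.0% higher, 15.7% lower). In A53T at 0.2 µM, and between the doses there, the share of members that passed was below that of all genes.

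Between the genotypes, 4 of the 7 were lower in A53T at 0.2 µM, against 68.9% of all genes (33.8% higher, 35.1% lower), and 3 were lower at 2.0 µM, against 19.6% (9.88% higher, 9.70% lower). In DMSO, the comparison in view, 4 lay past the same threshold, 1 higher and 3 lower, beside 14.0% of all genes (5.85% higher, 8.19% lower). That count is no test of the members and nothing is read from it; it was 1 without A53T DMSO replicate 1 and 2 without the unnumbered A53T library in DMSO. The interactions passed for 4 at 0.2 µM, 1 higher and 3 lower, against 47.3% (22.1% higher, 25.2% lower), and for 3 at 2.0 µM, 2 higher and 1 lower, against 14.6% (8.14% higher, 6.45% lower). Both interactions contain the DMSO difference in view. Lum is among both counts, and is 1 of the 5 in vector at 2.0 µM and the 1 higher in A53T at 0.2 µM. The interaction count at 0.2 µM was 2 without the unnumbered A53T library in DMSO. The median of the 7 changes was -0.12 in A53T and -0.47 in vector at 2.0 µM, and -0.66 between genotypes at 2.0 µM, with a median of all genes between -0.01 and 0.02 in every comparison. Leaving out the 3 outlying libraries gave counts at 2.0 µM of 4 in A53T and 5 in vector against DMSO, 3 between genotypes and 4 for the interaction.

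The wider set of smooth muscle and actomyosin genes was read beside the members at 2.0 µM. Of 27 measured genes of 34 listed, 3 rose and 12 fell in A53T with a median of -0.29, beside 37.6% of all genes, and 10 rose and 6 fell in vector with a median of 0.23, beside 47.2% of all genes. Flna, the actin cross-linker filamin A, fell in A53T (-0.60 ± 0.08, adjusted p = 0.000175) and rose in vector (1.24 ± 0.07, adjusted p = 8.35e-08), and its interaction was -1.83 ± 0.10 (adjusted p = 9.85e-07). The interaction also passed for Cnn3, a calponin (-0.75 ± 0.09), and Vcl, vinculin (-0.67 ± 0.11). In all, 1 gene was higher and 6 were lower by the interaction, with a median of -0.46, beside 8.14% of all genes higher and 6.45% lower.

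Mylk, the kinase that phosphorylates the myosin light chain, fell in A53T (-1.81 ± 0.19, adjusted p = 4.5e-05) and in vector (-1.35 ± 0.17, adjusted p = 4.13e-05). Myh11, the smooth muscle myosin heavy chain, rose in vector (0.83 ± 0.10, adjusted p = 2e-05); it averaged 219.5 normalized counts in A53T at 2.0 µM and 156 in A53T in DMSO, against 211 in vector at 2.0 µM and 118 in vector in DMSO. Tagln, Flna and Myh11 thus rose together in vector at 2.0 µM, while Mylk and Tpm1 fell there.

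**Figure D3:**
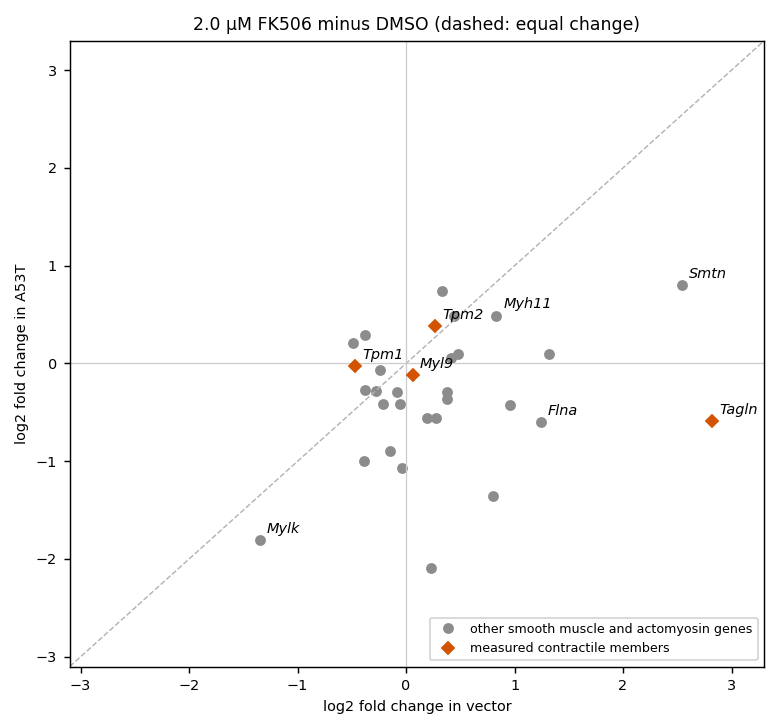
Log2 fold change at 2.0 µM FK506 against DMSO in vector (x axis) and in A53T (y axis) for each measured smooth muscle or actomyosin gene, with the 4 measured contractile members as diamonds and the dashed line marking equal change; the other named points were picked after their values were seen. Tagln (-0.59 in A53T, 2.82 in vector) lies farthest below the line, Flna (-0.60 in A53T, 1.24 in vector) also lies below it, and Tpm1 (-0.03 in A53T, -0.47 in vector) lies above it.

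SRF, MRTF and their targets were read beside these genes. At 2.0 µM, 0 of 17 measured genes rose and 11 fell in A53T by limma (1 higher and 13 lower at an unadjusted p under 0.05), with a median of -0.46, and 4 rose and 9 fell in vector, with a median of -0.26. Of all genes, 17.9% fell in A53T and 23.8% in vector. Srf itself fell in A53T (-0.57 ± 0.08, adjusted p = 0.000329), as did the actin gene Actb (-0.55 ± 0.09, adjusted p = 0.000597). Fosl1, an AP-1 subunit, fell in A53T (-0.90 ± 0.14, adjusted p = 0.000508) and rose in vector (1.87 ± 0.12, adjusted p = 2.27e-07). The matrix gene Cyr61 rose in vector at 0.2 µM (1.36 ± 0.23, adjusted p = 0.00227) and at 2.0 µM (1.95 ± 0.23, adjusted p = 2.01e-05). Fosl1 and Cyr61 went against most of the list there. In vector 3 genes rose and 6 fell at 0.2 µM, beside 7.70% of all genes higher and 10.6% lower, and 4 rose and 9 fell at 2.0 µM.

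Of 20 measured genes of the TGF-β pathway, 2 rose and 4 fell in A53T at 2.0 µM, and 5 rose and 4 fell in vector. These shares were below the 37.6% of all genes that passed in A53T and near the 47.2% in vector. Smad3, a signal transducer of the pathway, fell in A53T (-0.66 ± 0.10, adjusted p = 0.000329) and in vector (-0.67 ± 0.09, adjusted p = 4.21e-05). In vector the receptor gene Tgfbr2 rose (2.72 ± 0.37, adjusted p = 6.62e-05), as did the coreceptor gene Eng (2.02 ± 0.36, adjusted p = 0.000519), and the interaction of Tgfbr2 was -2.68 ± 0.56 (adjusted p = 0.00845).

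Defining markers of fibroblasts, mural cells, astrocytes and neurons were looked up in every group. Col1a1, a defining fibroblast collagen, averaged 13.15, 29.0 and 4.25 normalized counts in A53T in DMSO, 0.2 and 2.0 µM, and 9.22, 8.61 and 7.59 in vector. In the same order Col3a1, another such collagen, averaged 10.38, 18.64 and 4.40 in A53T, and 9.095, 7.77 and 6.66 in vector. The fibroblast marker Pdgfra averaged 14.95, 46.6 and 12.3 in A53T, and 18.2, 37.1 and 24.5 in vector. In vector cultures Pdgfra was thus higher with FK506 than in DMSO, where the means of both collagens were lower. The pericyte gene Pdgfrb averaged between 48.75 and 74.2 in all groups, and Gfap, the astrocyte filament gene, between 6684 and 44906. Col1a2, Rgs5, Cnn1 and Des are not listed in the table used here. No defining marker that was listed was at 0 in a whole group.

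**Figure D4:**
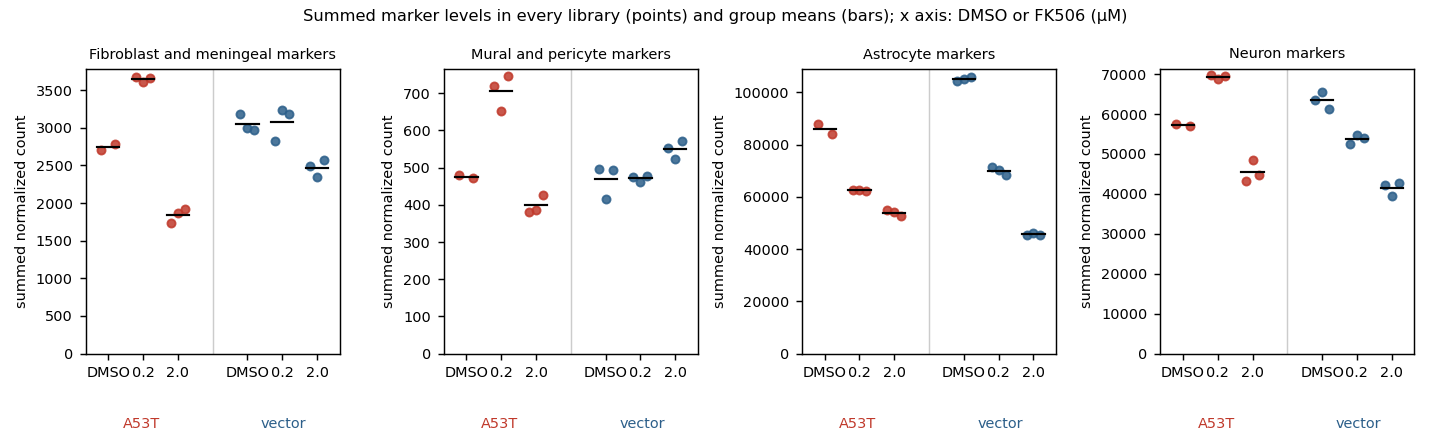
Summed normalized counts of the measured markers of fibroblasts and meninges, mural cells, astrocytes and neurons in every library (points) with group means (bars), by FK506 dose in µM on the x axis, A53T left and vector right. Fibroblast sums at 2.0 µM are 1739 to 1918 in A53T and 2343 to 2574 in vector, below the DMSO libraries of the same genotype, while mural sums in vector are 524 to 571 at 2.0 µM, above DMSO.

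The summed level of 17 measured fibroblast and meningeal markers of 29 listed was lower at 2.0 µM than in DMSO in both genotypes, as Dcn and Bgn were. It was 1739 to 1918 at 2.0 µM and 2698 to 2779 in DMSO in A53T, and 2343 to 2574 at 2.0 µM and 2973 to 3181 in DMSO in vector. Of these markers 1 rose and 4 fell in A53T, and 0 rose and 6 fell in vector by limma (1 higher and 7 lower there at an unadjusted p under 0.05). With rises and falls counted as 1 share, these too were below the 37.6% of all genes in A53T and the 47.2% in vector. The shares of markers that fell by limma were above those of all genes, 17.9% in A53T and 23.8% in vector. The shares that rose were below those of all genes, 19.7% in A53T and 23.4% in vector. Col5a2, a fibrillar collagen chain, fell in A53T (-1.22 ± 0.11, adjusted p = 1.19e-05) and in vector (-0.76 ± 0.09, adjusted p = 2.98e-05). The matrix protein Mgp fell in vector (-1.27 ± 0.16, adjusted p = 3.78e-05), and Fn1, fibronectin, fell in A53T (-1.20 ± 0.14, adjusted p = 7.06e-05). At 0.2 µM the sum was 3607 to 3678.5 in A53T, above every other library, where Dcn and Myl9 were low.

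The 8 measured mural markers of 14 listed summed to 382 to 426 at 2.0 µM and 471 to 481 in DMSO in A53T, and to 524 to 571 at 2.0 µM and 416 to 495 in DMSO in vector. At 0.2 µM the sum was 652 to 746 in A53T, the highest of all groups, where Tagln gave -0.18 against DMSO (adjusted p = 0.536). Mcam rose in vector at 2.0 µM (2.14 ± 0.17, adjusted p = 7.15e-07) with an interaction of -1.70 ± 0.25 (adjusted p = 0.00137), while Cspg4, or NG2, fell in A53T (-0.86 ± 0.17, adjusted p = 0.00232) and in vector (-0.66 ± 0.15, adjusted p = 0.0029). Of the mural markers 0 rose and 1 fell in A53T by limma (1 higher and 2 lower at an unadjusted p under 0.05), and 1 rose and 4 fell in vector with a median of -0.49, so that the higher sum in vector went against most of the markers that passed. Of all genes, 37.6% passed in A53T and 47.2% in vector.

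Sums of astrocyte and neuron markers were also lower at 2.0 µM than in DMSO. The sum of 11 astrocyte markers was 52755 to 54879.8 at 2.0 µM and 84070.4 to 87850.5 in DMSO in A53T, and 45203 to 46103 at 2.0 µM and 104127 to 105749 in DMSO in vector; the sum of 12 neuron markers was 43274 to 48545 at 2.0 µM and 56886.5 to 57539 in DMSO in A53T, and 39578 to 42846 at 2.0 µM and 61369 to 65492 in DMSO in vector. Gfap carried much of the astrocyte sum: it averaged 6684 at 2.0 µM and 35673 in DMSO in A53T. Of the astrocyte markers 3 rose and 5 fell in A53T, with a median of -0.19, and 2 rose and 9 fell in vector, with a median of -0.89; of the neuron markers 1 rose and 8 fell in A53T, with a median of -0.79, and 0 rose and 8 fell in vector by limma (0 higher and 9 lower at an unadjusted p under 0.05), with a median of -0.63. Of all genes, 19.7% rose and 17.9% fell in A53T, and 23.4% rose and 23.8% fell in vector. Both the astrocyte and the neuron sum lay below DMSO in each genotype in the samples in which Dcn and Bgn fell. The part of these cell markers in the members' changes was not tested.

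Lum and Tpm1 were both lower at 2.0 µM than in DMSO in vector cultures, and their log2 values had an r of 0.70 over the 15 samples. Lum has no test there and both values use the DMSO libraries in view, so nothing about shared regulation is read from the pair. Promoters are shown for these 2 genes. Of the 7 measured members, 3 had an entry among the RefSeq promoters of GRCr8, the third being Tpm2. Each is the 250 bases before the start site, 5′ to 3′ on the strand of the gene, Lum at chr7:34245456-34245705 on the plus strand and Tpm1 at chr8:76543416-76543665 on the minus strand. Capitals mark GGAAA, the core that NFAT factors, the best known calcineurin targets, bind, or its complement TTTCC.
Lum: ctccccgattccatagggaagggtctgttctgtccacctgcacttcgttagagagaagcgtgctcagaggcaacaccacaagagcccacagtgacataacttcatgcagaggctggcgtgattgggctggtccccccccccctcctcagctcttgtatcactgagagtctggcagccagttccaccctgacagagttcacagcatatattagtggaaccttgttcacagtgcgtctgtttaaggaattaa
Tpm1: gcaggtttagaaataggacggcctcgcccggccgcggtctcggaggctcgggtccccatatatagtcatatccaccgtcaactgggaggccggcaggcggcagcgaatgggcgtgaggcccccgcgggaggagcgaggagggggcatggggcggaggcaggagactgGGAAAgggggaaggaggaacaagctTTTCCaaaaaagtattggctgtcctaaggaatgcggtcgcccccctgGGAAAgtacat

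GGAAA, searched on both strands, was found 3 times in the Tpm1 window and 0 times in those of Lum and Tpm2; 56.9% of all 33469 promoters hold it. The Smad core CAGAC was found 3 times for Lum, 0 times for Tpm1 and 1 time for Tpm2, and is in 42.9% of promoters. Neither TATAAA (12.9% of promoters) nor the CArG box of SRF (1.5%) was found in any of the 3 windows. No 2 motifs occurred in the same window, so none overlapped another. A match says only that these letters are present.

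Over the 15 samples the r of Tagln was 0.05 with Myl9, -0.41 with Tpm1 and 0.37 with Tpm2. Among the other contractile members it was 0.37 for Myl9 and Tpm1, 0.30 for Myl9 and Tpm2, and 0.41 for Tpm1 and Tpm2. The r of Tpm1 was 0.75 with Dcn, 0.70 with Lum and 0.43 with Bgn, the last about that with Tpm2. Among 10245 genes compared, the 5 most like Lum were Syndig1 (r = 0.926), Sez6 (0.921), Lztr1 (0.916), Kcnn2 (0.911) and Fam20a (0.899). The 5 most like the mean of the 4 measured contractile genes were Tuba8 (0.930), Nsun5 (0.924), Snrpb (0.917), Csf2ra (0.917) and Angptl6 (0.911). Since all 15 samples fall into 6 groups, such r values describe the order of the groups.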

How the data were processed

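Per the submitters' processing notes, FastQC, TopHat, HTSeq and the rat build rn6 were used; their versions and the normalization are not given in the sources used here. Per the labels' protocols, the kit was a stranded mRNA kit. The authors deposited normalized gene counts, treated here as a signal. In 11 of the 17 libraries, 95% or more of values from 0.5 to 6 lay within 0.1 step of whole multiples of 1 step, and in 8 values from 20 to 50 did too, so whole reads were not recovered for all libraries and no count test was run. Of the 11247 labels, 10458 matched a RefSeq symbol and 11093 a symbol or synonym; 23 looked like dates and were not named.

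The members and gene lists were chosen with earlier results of these data known. All 7 measured members are named; of each list, at most 3 genes per comparison, those with the smallest p, and defining markers. The mean value of at least 1 asked of a gene removed none. log2(value + 1) was fitted with limma 3.58.1 (trend=TRUE, R 4.3.3) over all genes with a mean per group: 15 samples, 9 residual degrees of freedom, Benjamini-Hochberg adjustment, threshold 0.05. The fit was tested on simulated data. The pseudocount understates changes of low genes such as Lum and Tpm2. Intervals are 95% intervals of the fit. Titles number the A53T libraries in DMSO 1 and 2 and their columns 1 and 3, so the second is used without a number. Nothing says that libraries came from separate cultures, so p-values measure only the spread between them, which may be technical. Alternatives changed the pseudocount, filter, scaling, libraries, replicate block, groups in the fit and trend.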

Additional observations from a re-analysis of the deposited data

Results flagged for a closer look

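With Lum set aside, the interaction term of the fit over all genes passed (limma, adjusted p under 0.05) for Tagln, Tpm1, Myl9 and Dcn at 1 dose or both. Of all genes, 47.3% passed that test at 0.2 µM, the only dose at which Dcn and Myl9 did, and 14.6% passed it at 2.0 µM. The 4 of 7 members that passed at 0.2 µM, Lum among them, were near the share of all genes there. The share of all genes that passed at either dose was not computed. For Tagln the change in A53T minus the change in vector was -1.45 at 0.2 µM and -3.41 at 2.0 µM. It was 0.44 for Tpm1 at 2.0 µM, a call that ended in 7 of the fits that left out 1 library each. At 0.2 µM it was -0.91 for Myl9 and -0.70 for Dcn, and the call for Dcn ended without the unnumbered A53T library in DMSO. For Lum it was 1.63 at 0.2 µM and 3.29 at 2.0 µM, but these contain the DMSO difference that brought Lum in and are no independent result; the one at 0.2 µM no longer passed in 4 of the fits that left out 1 library each (without vector DMSO replicate 3, vector 0.2 µM replicate 1 or 3, or the unnumbered A53T library in DMSO). The values at 0.2 µM all use the A53T group whose value distribution stands apart, and the part of that in them was not tested. All the interactions here also contain the DMSO genotype difference, the comparison in view, and are not fully separate from it. For Tpm1 that difference was -0.37, against 0.08 between genotypes at 2.0 µM, so its interaction comes mostly from the comparison in view. For Tagln it was 0.92, against -2.49 at 2.0 µM, where no DMSO library is used.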

How the results depend on the processing

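Leaving aside the DMSO genotype comparison and the Lum comparisons with DMSO libraries, over 30 settings 26 of 31 called member values stayed past the threshold in every fit that gave them, 0 of the 31 reversed, and 18 of 902 alternatives of called values lost the call; 35 of 952 alternatives of values not called passed. The number of members called moved most without A53T DMSO replicate 1 in A53T against vector in DMSO (1 in place of 4; range 1 to 5 over fits that each left out 1 library). That range was 1 to 2 for 0.2 µM against DMSO in vector, 2 to 5 for the interaction at 0.2 µM, 2 to 4 for the interaction at 2.0 µM and for 2.0 µM against DMSO in A53T. With a replicate block by the title numbers the counts were 2 for A53T against vector in DMSO and 1 for 0.2 µM in vector; the block gave no value for comparisons with A53T at 0.2 µM. Same-numbered libraries did not as a rule deviate together (median r -0.234 over 22 pairs, 9 above 0.1, against 0.143 over 44 other pairs). Their r ran from -0.712 to 0.81. Deviations from the mean of so few libraries are tied to each other, so this check cannot exclude a pairing or batch. All values that reversed had not passed. Under quantile normalization, which moved the median of all genes by -0.22, -0.20, 0.25 and -0.20 in the 4 comparisons with A53T at 0.2 µM, these were Bgn -0.26 (A53T against vector at 0.2 µM) and -0.47 (0.2 µM in A53T), Lum 0.37 (genotypes at 2.0 µM) and 0.66 (2.0 against 0.2 µM in A53T), Dcn 0.35 (the same) and Myl9 0.06 (2.0 µM in A53T) and 0.03 (interaction at 2.0 µM). Without the 3 libraries that stood apart, Lum was 0.16 and Myl9 -0.03 between genotypes at 2.0 µM; with the block, Tpm1 was 0.01 at 2.0 µM in A53T. Leaving out single libraries gave -0.29 to 0.15 for Lum and -0.06 to 0.16 for Myl9 between genotypes at 2.0 µM, -0.10 to 0.05 for Tpm1 and -0.13 to 0.90 for Tpm2 (to 0.64 over numbered libraries) at 2.0 µM in A53T, -0.82 to 0.20 in A53T and -0.29 to 0.14 in vector for Tpm2 at 0.2 µM, -0.78 to 0.25 and -0.40 to 0.63 for the Tpm2 interactions at 0.2 and 2.0 µM, and -0.04 to 0.24 for the Dcn interaction at 2.0 µM (to 0.21 over numbered libraries). The cause was not tested. The pseudocount and the unknown depth limit Lum and Tpm2 most.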
